A study of Mus musculus with 20 samples.

Results

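A set of 57 genes was studied whose probe sets were low in the oocyte and at the 1-cell, 2-cell and 8-cell stages and high in the blastocyst. The genes were selected on these same arrays. A probe set was taken when its blastocyst mean of log2(intensity + 20) exceeded each of the 4 earlier stage means by at least 2, when all 4 earlier means were under 7.2, and when it carried exactly 1 gene symbol. The ceiling of 7.2 corresponds to an intensity of 127, and the least difference of 2 to a 4-fold change on that scale. The rule took 61 of 14661 probe sets with 1 gene symbol, which stand for 57 of 9607 genes. Another 4 probe sets met the values but carried no symbol or several, and were left out.

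Expression was measured on 20 Affymetrix MOE430B arrays, which carry short probes for mouse transcripts in sets, each read out as 1 intensity. The 5 groups were oocytes and embryos labelled 1-cell, 2-cell, 8-cell and blastocyst, with 4 arrays each. Total RNA was amplified by 2 rounds of in vitro transcription before hybridisation. Strain, age, treatment, sorting by cell type and the number of embryos behind each array are not stated in the labels, and whole embryos of a stage stand for all of its cells.

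The blastocyst is the stage at which the mouse embryo becomes a hollow ball of cells. An outer epithelium, the trophectoderm, pumps fluid into the cavity and later builds the placenta, and an inner cell mass gives rise to the embryo proper and to the primitive endoderm. Transcripts stored in the oocyte are cleared early, the embryo's own genome becomes active in 2-cell embryos in the mouse, and further genes are turned on as the outer and inner lineages part. In trophectoderm, TEAD factors with their cofactors of the Hippo pathway, and factors of the CDX, GATA and AP-2 families, are known to act. In whole embryos, fewer cells of a type and less RNA per cell cannot be told apart.

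Blastocyst levels of the 61 probe sets spanned a wide range. Their mean intensities ran from 174.8 to 5365, with a median of 497.5; 8 were over 1000 and 4 over 2000. The excess of the blastocyst over the highest earlier stage ran from 2.02 to 6.17 log2 units, with a median of 2.52, and 17 probe sets reached 3 and 9 reached 4. In 60 of the 61, every blastocyst array lay above every one of the 16 earlier arrays. The rule chose on these same values and so favours this separation. It is a description only, and its share over all probe sets was not computed. Over all 22511 probe sets, 5.49% were higher in the blastocyst than in 8-cell embryos by limma's moderated test at an adjusted p under 0.05; since the rule chose the members by this difference, nothing is read from the members' count.

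**Figure D1:**
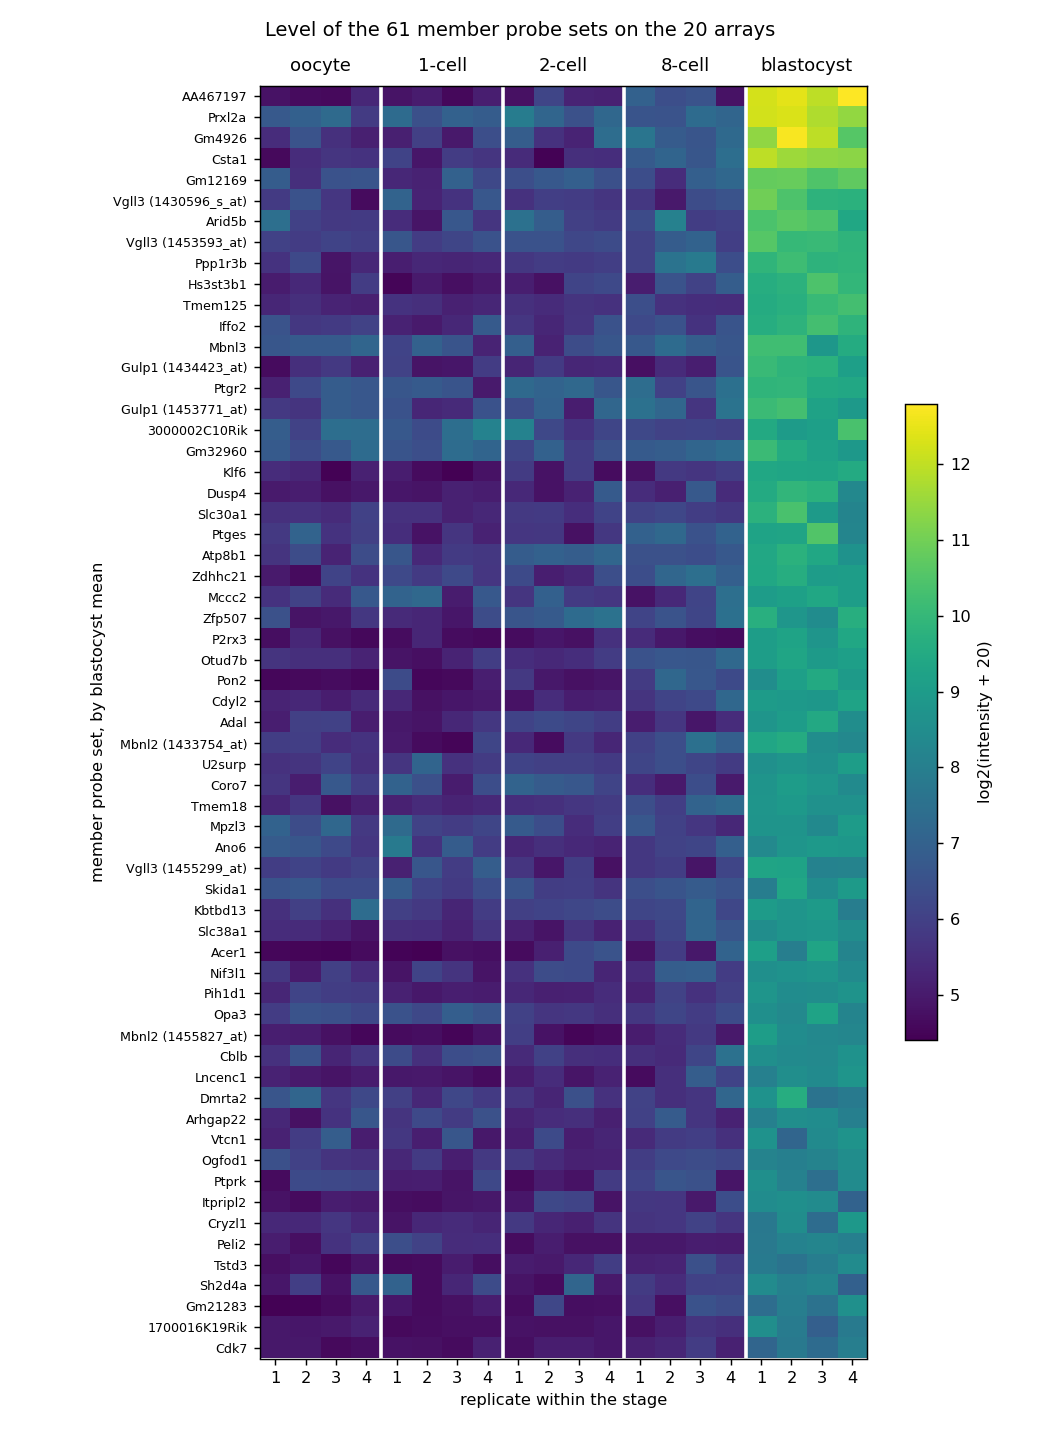
Heat map of log2(intensity + 20) for the 61 member probe sets (rows, by blastocyst mean) on the 20 arrays (columns, 4 replicates a stage). The 4 blastocyst columns are brighter than the other 16 in every row but that of Sh2d4a, a separation that the rule favours. The top 4 rows have blastocyst means over 2000.

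AA467197, also called Nmes1, was the brightest member; it encodes a small protein related to a subunit of mitochondrial cytochrome c oxidase. Its name falls outside the rule for named genes, and it was singled out after its values were seen. The 4 blastocyst arrays read 4874.4, 5577.4, 3921.4 and 7088.5. At the 8-cell stage it read 108.7, 65.1, 73.5 and 8.1, in 2-cell embryos 7.6, 50.4, 17.7 and 16.2, in 1-cell embryos 8.4, 12.6, 3.9 and 14.2, and in oocytes 8.0, 5.1, 4.2 and 20. It thus had the largest excess of all 61 members, 6.17 log2 units over the 8-cell mean, and the 4 8-cell arrays were spread from near the oocyte level to above 100. Its change among the 4 earlier stages passed the moderated F test (adjusted p = 0.0212), whereas no single step between them did.

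Prxl2a, a peroxiredoxin-like antioxidant protein, was the second brightest. Its blastocyst arrays read 4758.4, 5045.1, 3497.1 and 2741.0. Before that it read 88.1, 105.1, 139.0 and 38.3 in oocytes, 142.0, 67.9, 108.1 and 95.6 in 1-cell embryos, 224.3, 120.3, 69.1 and 126.8 in 2-cell embryos and 76.4, 73.4, 143.1 and 121.1 in 8-cell embryos. Prxl2a was never as dark as AA467197: its 2-cell mean of 7.18 log2 units was the closest of all members to the ceiling. Its probe set is of the x_at type, whose probes can match other transcripts. Gm4926, a pseudogene in RefSeq's annotation, read 2654.6, 6747.8, 3985.6 and 1514.4 in blastocysts and between 11.1 and 181.6 on the 16 earlier arrays, so its 4 blastocyst replicates differed by more than 4-fold.

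Csta1 encodes a stefin, a cytosolic inhibitor of cysteine proteases such as cathepsins, and was on the fixed list of trophectoderm genes and on that of proteases and their inhibitors. All such lists were fixed with earlier results of these data known. Its blastocyst arrays read 3989.3, 3033.9, 2667.0 and 2568.4. At the 8-cell stage it read 90.1, 119.1, 81.0 and 153.4, against 22.8, 1.7, 26.6 and 25.4 in 2-cell embryos, 48.6, 9.7, 39.1 and 31.8 in 1-cell embryos and 4.3, 24.3, 32.2 and 29.9 in oocytes. The 4 8-cell arrays therefore all lay above the 12 arrays before them, and the 4 blastocyst arrays far above the 8-cell ones.

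Vgll3, a vestigial-like cofactor that binds TEAD transcription factors, was the only gene with 3 member probe sets and was on the fixed Hippo pathway list. The brightest read 1998.1, 1391.1, 886.1 and 838.5 in blastocysts and between 4.8 and 114.7 on the 16 earlier arrays. The other two averaged 1133 ± 263 and 433.0 ± 198 (SD, n = 4) in blastocysts, and their excesses over the highest earlier stage were 3.67 and 2.57 log2 units, beside 4.10 for the first. All 3 therefore moved the same way, with levels that cannot be compared between probe sets. The brightest and the one that averaged 1133 are annotated to the same source sequence, so they are not independent readings of the gene. No other probe set of the gene was analysed here.

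Members with known roles in transcription and chromatin are given first. Klf6, a zinc finger transcription factor and a fixed trophectoderm gene, read 663.0, 624.8, 612.2 and 718.9 in blastocysts and between 1.1 and 40.6 before. Its 4 blastocyst arrays were the tightest of all members (SD of 0.10 log2 units). Arid5b, a DNA-binding partner of a histone demethylase, read 1353.6, 1582.1, 1372.5 and 659.5 in blastocysts. Before that Arid5b lay between 9.5 and 251.5, with 2-cell replicate 1 at 163.6 and 8-cell replicate 2 at 251.5. Cdyl2, a chromodomain protein, averaged 497.5 ± 69.8 in blastocysts, Zfp507, a zinc finger protein, 593.1 ± 246 and Dmrta2, a DM-domain transcription factor, 386.6 ± 271 (SD, n = 4 each). Dmrta2 rested mainly on 1 array, since its 4 blastocysts read 391.2, 767.9, 175.0 and 212.4.

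Among regulators of RNA, the muscleblind-like splicing factors Mbnl3 and Mbnl2 were members. Mbnl3, also a fixed trophectoderm gene, read 1186.9, 1177.0, 437.0 and 735.5 in blastocysts and between 16.9 and 139.9 before. Mbnl2 had a pair of member probe sets, with blastocyst means of 505.2 ± 215 and 360.8 ± 110 and excesses of 2.22 and 3.22 log2 units. On all 3 of these probe sets, blastocyst replicates 1 and 2 read higher than replicates 3 and 4.

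Members with other roles in the cell follow, with no list or test behind their grouping. Dusp4, a phosphatase that switches off MAP kinases and stood on the fixed primitive endoderm and signalling lists, read 723.7, 956.1, 844.8 and 297.8 in blastocysts and between 7.7 and 89.0 before. P2rx3, an ATP-gated ion channel, read 513.9, 596.7, 421.2 and 655.8, against 3.7 to 28.4 on the 16 earlier arrays. P2rx3 was among the darkest members before the blastocyst, and its highest stage mean there was 13 ± 10.4 in 2-cell embryos (SD, n = 4). Peli2, a ubiquitin ligase of the Pellino family, read 199.6, 259.2, 280.1 and 238.3 in blastocysts. Otud7b, a deubiquitinase, averaged 541.5 ± 63.1 there, and Gulp1, an adaptor for the engulfment of dying cells, 841.4 ± 224 and 846.9 ± 378 on its pair of member probe sets (SD, n = 4 each).

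Several members are enzymes or carriers. Ppp1r3b, which brings protein phosphatase to glycogen, read 938.9, 1143.1, 882.0 and 937.0 in blastocysts; its 8-cell replicates 2 and 3 had read 171.5 and 213.3 and the other 14 earlier arrays no more than 63.6. Hs3st3b1, a heparan sulfate sulfotransferase, read 764.1, 858.7, 1369.7 and 969.8 and between 3.0 and 97.6 before. Both were thus clear of their earlier arrays by more than 3-fold.

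In prostaglandin metabolism, Ptges, a prostaglandin E synthase and a fixed gene of the trophectoderm and lipid lists, read 597.4, 605.9, 1432.3 and 277.7 in blastocysts, so that its replicates differed by more than 5-fold. Ptgr2, a prostaglandin reductase, averaged 818.4 ± 148 (SD, n = 4). The zinc exporter Slc30a1 read 870.4, 1322.0, 488.4 and 274.5, again lowest on replicate 4, and the glutamine transporter Slc38a1 read 349.2, 409.9, 431.5 and 349.3. Atp8b1, a phospholipid flippase, averaged 640.7 ± 189, Mccc2, a carboxylase subunit of leucine breakdown, 558.0 ± 67.8, Pon2, a paraoxonase, 517.6 ± 148, Acer1, an alkaline ceramidase, 413.5 ± 188, and Adal, an adenosine deaminase-like protein, 490.6 ± 145 (SD, n = 4 each). Zdhhc21, a palmitoyltransferase, averaged 614.6 ± 126. Tmem125, a transmembrane protein, read 744.5, 803.8, 1039.4 and 1241.8 against 15.5 to 66 before, and Iffo2, of the intermediate filament family, read 772.4, 888.9, 1215.5 and 910.5 against 12.0 to 89.2.

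**Figure D2:**
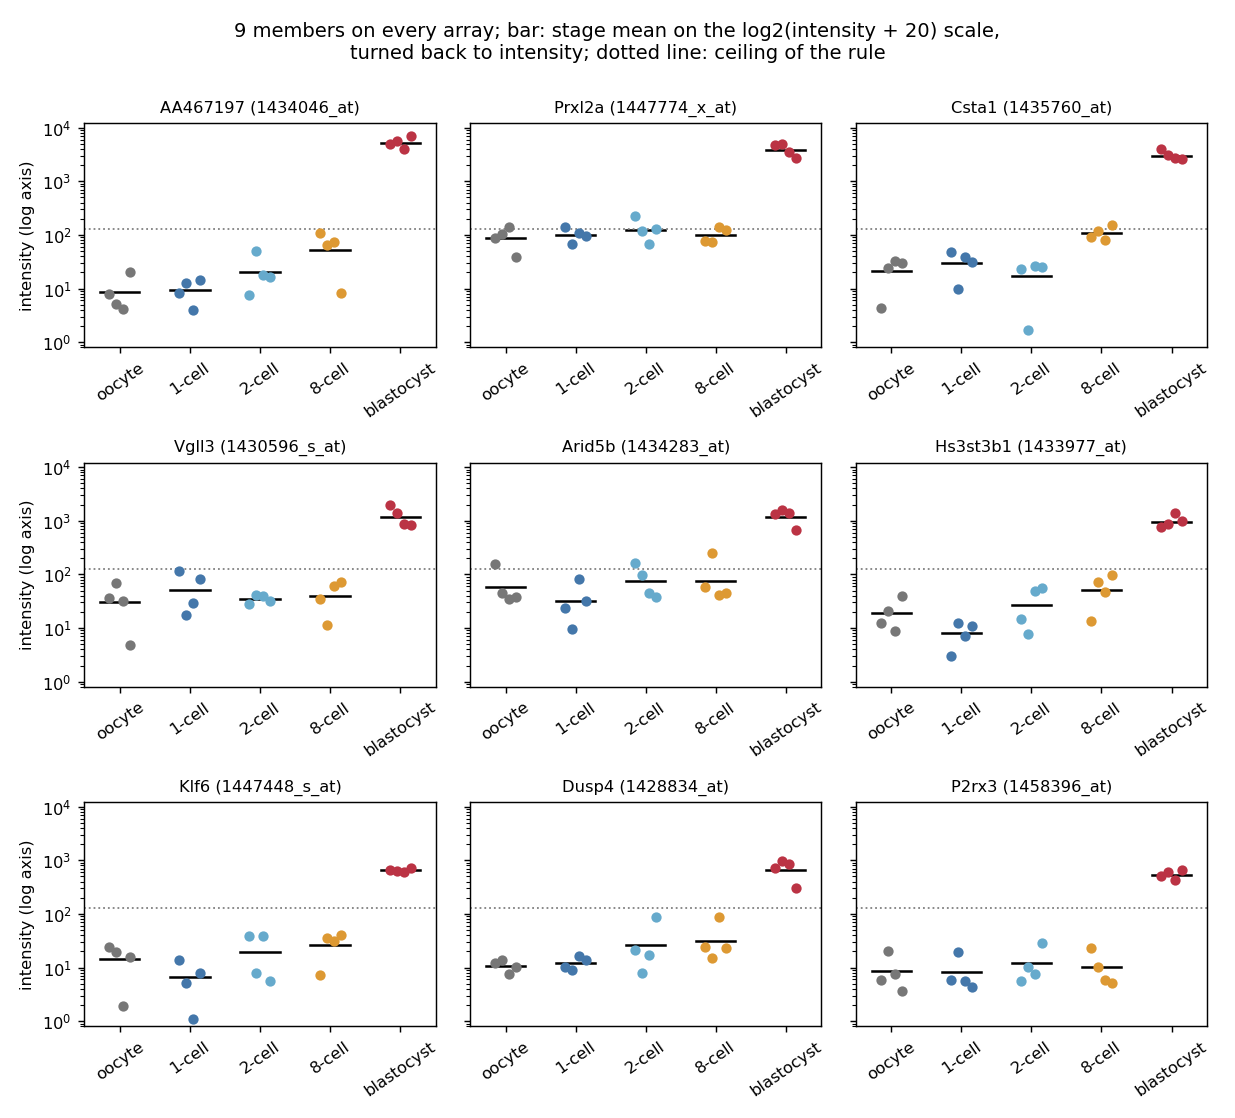
Intensity (log axis) of 9 members on each of the 20 arrays, by stage. The blastocyst points lie above the ceiling of the rule (intensity 127) and above all earlier points in each panel, whereas the earlier points differ: Prxl2a lay between 38.3 and 224.3, P2rx3 between 3.7 and 28.4, and Csta1 was higher in 8-cell than in 2-cell embryos.

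The other 20 genes lie outside the rule for named genes. Besides AA467197 they are Gm12169 (1681 ± 179 in blastocysts), Gm32960, U2surp, Tmem18, Mpzl3, Skida1, Kbtbd13, Nif3l1, Pih1d1, Cblb, Lncenc1, Arhgap22, Vtcn1, Ptprk, Itpripl2, Cryzl1, Tstd3, 1700016K19Rik and Cdk7. Cdk7, the kinase that activates cyclin-dependent kinases, was the dimmest member, at 121.6, 201.4, 140.2 and 236.1 in blastocysts. Vtcn1, an inhibitory ligand of T cells, read 389.8, 119.3, 318.9 and 397.6, with replicate 2 well under the others. Of the 57 genes, 52 are protein-coding in RefSeq's annotation. The other 5 are the pseudogenes Gm4926 and 3000002C10Rik and the long non-coding RNAs Gm32960, Gm21283 and Lncenc1. The genes lie on 19 chromosomes, with no more than 6 on any of them (chromosome 8).

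Sh2d4a, an adaptor protein, was the 1 member whose stages overlapped. Its blastocysts read 332.7, 244.0, 280.5 and 105.9, and 1-cell replicate 1 and 2-cell replicate 3 had read 110.1 and 121.9. Near the least difference of 2, the members just inside were Dmrta2 (2.02), Ogfod1 (2.02), a prolyl hydroxylase, Opa3 (2.03), a mitochondrial protein, and Gm21283 (2.05). Just outside were Stx3 (1.98), Ttc9 (1.97), Myh10 (1.97) and Sh3tc2 (1.97). Near the ceiling of 7.2, the highest earlier mean was 7.18 for Prxl2a, 7.14 for 3000002C10Rik, 7.09 for Gm4926 and 7.07 for Zfp507. Just above it were Raph1 (7.37), Tmprss2 (7.44), Cpne8 (7.5) and Ldoc1 (7.59). Tmprss2, a membrane serine protease, is thereby no member although its blastocyst mean of 9176 ± 2003 (SD, n = 4) was above that of every member and its excess over the 2-cell stage was 5.70 log2 units. The thresholds separate neighbours whose values were alike.

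Promoter sequences were at hand for 42 of the 57 genes, as 49 windows of 300 bases that run from 250 before to 50 after a RefSeq gene start (GRCm38.p6). The 5 below are shown because Csta1, Vgll3 and Ptges come from the trophectoderm and Hippo lists and hold the letters of a TEAD motif, whereas Klf6, also of the trophectoderm list, and AA467197, the brightest member, hold none of the motifs marked. Mbnl3, another trophectoderm gene, and Slc30a1, of the solute carrier list, hold none of them either and are not shown, and for the listed members Dusp4 and Slc38a1 no promoter was at hand. Each is written 5′ to 3′ along its gene, in lower case. Capitals mark every match on either strand to 5 motifs. The TEAD motif was searched as GGAATG. For factors of the GATA family it was AGATAA, for those of the CDX family TTTATG and for the TATA box TATAAA. The AP-2 motif was GCCNNNGGC, which reads the same on both strands. They lie at chr2:122637637-122637936 (plus strand, AA467197), chr16:36131140-36131439 (minus strand, Csta1), chr16:65814939-65815238 (plus strand, Vgll3), chr2:30903248-30903547 (minus strand, Ptges) and chr13:5861239-5861538 (plus strand, Klf6).
AA467197: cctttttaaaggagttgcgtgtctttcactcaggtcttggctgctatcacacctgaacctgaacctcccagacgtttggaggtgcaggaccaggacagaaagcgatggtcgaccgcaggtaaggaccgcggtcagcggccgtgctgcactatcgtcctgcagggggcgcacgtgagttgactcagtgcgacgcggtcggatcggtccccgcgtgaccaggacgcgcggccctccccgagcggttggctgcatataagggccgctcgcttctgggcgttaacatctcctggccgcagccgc
Csta1: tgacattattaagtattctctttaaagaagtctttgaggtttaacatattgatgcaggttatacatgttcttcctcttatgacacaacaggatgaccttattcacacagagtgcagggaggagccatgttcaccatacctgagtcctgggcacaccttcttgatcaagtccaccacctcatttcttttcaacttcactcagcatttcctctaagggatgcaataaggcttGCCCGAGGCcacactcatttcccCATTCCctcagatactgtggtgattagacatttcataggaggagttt
Vgll3: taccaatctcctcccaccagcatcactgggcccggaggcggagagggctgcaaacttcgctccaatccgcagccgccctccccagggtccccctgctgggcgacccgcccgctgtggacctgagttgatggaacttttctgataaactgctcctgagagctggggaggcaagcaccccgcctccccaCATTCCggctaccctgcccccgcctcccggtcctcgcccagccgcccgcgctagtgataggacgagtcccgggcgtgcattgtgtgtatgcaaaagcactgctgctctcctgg
Ptges: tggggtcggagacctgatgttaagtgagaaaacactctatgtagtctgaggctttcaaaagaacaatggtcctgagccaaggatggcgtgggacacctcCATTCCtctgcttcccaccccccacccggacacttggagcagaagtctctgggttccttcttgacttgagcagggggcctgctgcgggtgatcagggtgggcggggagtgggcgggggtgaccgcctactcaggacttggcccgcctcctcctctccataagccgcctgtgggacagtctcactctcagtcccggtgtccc
Klf6: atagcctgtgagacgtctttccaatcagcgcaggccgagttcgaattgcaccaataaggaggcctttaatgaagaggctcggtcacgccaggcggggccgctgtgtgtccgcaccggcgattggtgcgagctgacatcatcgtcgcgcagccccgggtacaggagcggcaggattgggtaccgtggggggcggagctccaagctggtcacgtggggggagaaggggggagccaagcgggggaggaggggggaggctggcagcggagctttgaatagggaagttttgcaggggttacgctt

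The TEAD letters occurred in about the same share of the members' promoters as of all promoters. They were in 8 of the 49 member promoters, 16.3% (95% Wilson interval 8.51 to 29), against 14.7% of all 32851 promoters of the same length. The AP-2 letters were in 20.4% of member promoters (11.5 to 33.6) and 16.6% of all. GATA, CDX and TATA letters were each in 2 of the 49, 4.08% (1.13 to 13.7), against 11.2%, 11.9% and 13.6% of all promoters. The ETS letters CCGGAA, which can overlap the TEAD letters at GGAA, were in 8.16% (3.22 to 19.2) against 14.9%. For the letters GGGCGG of SP and KLF factors, left unmarked in the sequences above, the interval lay above the share of all promoters: 28 of the 49 held them, 57.1% (43.3 to 70.0), against 35.7%. Member promoters were also richer in G and C, with a median of 60% against 52.7%, and in CpG, with a median observed over expected ratio of 0.642 against 0.384; the part of base composition in the share of GGGCGG was not tested. Several windows belong to the same gene, and the intervals cover counting error only. The promoters counted as all were not limited to genes with a probe set on the array. Their shares are therefore no matched baseline for the members.

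The label of genes first seen in the blastocyst was checked against the levels themselves. The data hold no detection calls, so a low value cannot be called absent. The median intensity of the whole table was 82.6. All 4 earlier stage means were below it for 45 of the 61 members, but only 17 had all 16 earlier arrays below it and 44 had at least 1 earlier array at or above it. Members such as P2rx3, Klf6 and Pih1d1 were dark on every earlier array, and others such as Prxl2a, Mbnl3 and Ptgr2 lay near the middle of the table from the oocyte on.

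Other probe sets of the same genes followed other courses. The table analysed held 48 further probe sets, none of them members, for 29 of the 57 genes, and none for the other 28. None of the 48 exceeded the highest earlier stage by 2 log2 units in the blastocyst and 4 did by 1, with values of 1.83 for Coro7, 1.54 for Cblb, 1.5 for Zdhhc21 and 1.10 for Mbnl2. Another 22 were higher in the blastocyst by less and 22 were not higher at all. Among all probe sets with 1 symbol, 2.89% reached 1 and 23.6% were above 0. That the other probe sets differ less is in part fixed by the rule, since one that met it would itself be a member.

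Of the 48, 24 (50%) had an earlier stage mean at or over the ceiling, near the 53.5% of all probe sets with 1 symbol. They belong to 17 of the 57 genes: Ano6, Arid5b, Cblb, Cdk7, Cdyl2, Coro7, Cryzl1, Kbtbd13, Mbnl2, Mbnl3, Ogfod1, Opa3, Otud7b, Peli2, Pih1d1, U2surp and Zdhhc21. Kbtbd13, a kelch protein, was at 406.8 ± 123 in blastocysts on its member probe set, whereas its x_at probe set read 513.4 ± 46.2 in oocytes and 990.1 ± 103 in blastocysts (SD, n = 4 each). Pih1d1, a part of a chaperone complex, had a member of the x_at type at 374.8 ± 39.2 in blastocysts, and another probe set at 439.1 in oocytes and 358.4 ± 186 in blastocysts. Ano6, a membrane lipid scramblase, was at 404.7 ± 67.8 in blastocysts on its member, and its other probe set read 418.5 ± 78.1 in oocytes and 542.4 ± 81.0 in blastocysts. Zdhhc21 showed a like course on both: its second probe set averaged 94 in 2-cell embryos, 345.4 in 8-cell embryos and 1018.6 ± 120 in the blastocyst. In these 17 genes the low earlier level was thus seen on the member probe set and not on every probe set given that symbol; which transcript each probe set reads was not tested.

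The reverse case also occurred. For 12 genes, Gulp1, Klf6, Hs3st3b1, P2rx3, Tmem125, Pon2, Ptprk, Skida1, Adal, Mccc2, Ptgr2 and Zfp507, the other probe sets were all under the ceiling before the blastocyst. Several of these were low in the blastocyst as well: the second probe set of Hs3st3b1 read 43.1 ± 34.1 there, that of Pon2 23.0 ± 18.1 and the third of Gulp1 28.6 ± 17.2 (SD, n = 4 each). That of Klf6, of the x_at type, read 158.8 ± 11.7 in the blastocyst against 101.8 ± 32.4 in 8-cell embryos.

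**Figure D3:**
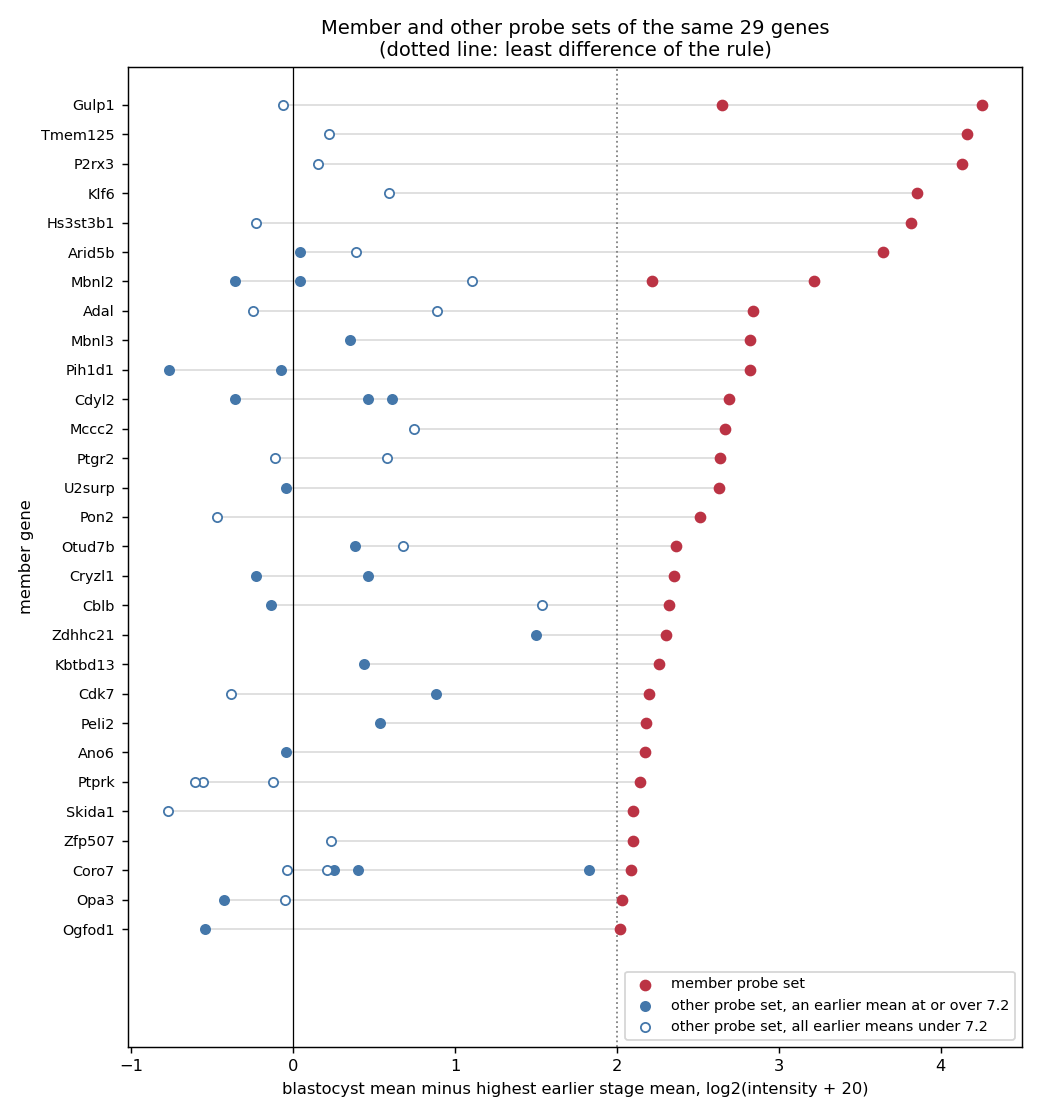
Blastocyst mean minus the highest earlier stage mean, in log2(intensity + 20), for member probe sets (red) and other probe sets (blue) of the 29 genes that have both. All members lie at 2.02 or above by the rule, and the other probe sets lie between -0.77 and 1.83; filled blue points, in 17 genes, had an earlier stage mean at or over 7.2.

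The course of the members before the blastocyst was not what the rule chose, although the ceiling limits how far they can move. The least difference of the rule also limits the members' earlier levels, but not those of the other probe sets under the ceiling. The highest of the 4 earlier stages was the 8-cell stage for 40 of the 61 members (65.6%), the 1-cell stage for 9, the 2-cell stage for 8 and the oocyte for 4. Of the 6819 probe sets with 1 symbol under the same ceiling, 42.4% were highest in 8-cell embryos. Median levels of the members were 5.66 log2 units in oocytes, 5.51 in 1-cell embryos, 5.57 in 2-cell embryos and 6.13 in 8-cell embryos, against 5.63, 5.64, 5.74 and 5.87 for all probe sets under the ceiling.

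From the 2-cell to the 8-cell stage 10 of the 61 members rose (16.4%) and 1 fell, by limma's moderated test with Benjamini-Hochberg adjustment over all probe sets. Over all probe sets, 10.2% rose and 8.95% fell in this step, and of those under the ceiling 4.38% rose and 1.89% fell. The median difference was 0.37 log2 units in the members, against 0.105 in all probe sets and 0.108 in those under the ceiling. A positive difference was found in 50 of the 61 members, and in 60.3% of the probe sets under the ceiling. Bacterial spike-in control probe sets also averaged more in 8-cell than in 2-cell embryos, 8.37 against 7.89 log2 units, and the median intensity of the arrays was higher too, at 90.2 to 93.3 against 81.0 to 87.5; the part of either in the members' rise was not tested. Without 8-cell replicate 3 the count that rose was 5 of 61, and then 8.92% of all probe sets rose. Of the 5 lost calls, those of Zdhhc21, Mbnl2, Ppp1r3b, Slc38a1 and Tmem18, replicate 3 had been the highest 8-cell array of Zdhhc21 (157.8), Mbnl2 (162.4), Ppp1r3b (213.3) and Slc38a1 (120.6).

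Csta1 rose the most, by 1.77 log2 units (SE 0.32, adjusted p = 0.000246 by limma). Otud7b read 71.0, 81.9, 80.1 and 129.3 in 8-cell embryos against 25.7, 21.3, 25.1 and 40 in 2-cell embryos, without overlap, a rise of 1.19 (SE 0.29, adjusted p = 0.00418). Cdyl2 read 30.4, 50, 57.0 and 128.3 against 7.9, 24.2, 13.9 and 15.5, also without overlap, a rise of 1.19 (SE 0.30, adjusted p = 0.00649). For Pon2 the values were 38.4, 126.4, 83.6 and 58.4 against 35.8, 10.6, 7.4 and 9.2, a rise of 1.42 (SE 0.38, adjusted p = 0.00926). These 4 genes were called under every alternative that was run, each time on the same member probe set. Csta1 had no other probe set. From 2-cell to 8-cell embryos, the mean of the other Pon2 probe set went from 37.1 to 33.5. Those of Cdyl2 went from 304.1 to 304.8, from 133.3 to 172 and from 126.8 to 156.0. Those of Otud7b went from 76.1 to 84.4 and from 230.65 to 354.65.

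Ptges rose by 1.44 (adjusted p = 0.0132), the brighter probe set of Mbnl2 by 1.43 (adjusted p = 0.0128), Zdhhc21 by 1.22 (adjusted p = 0.0166) and Slc38a1 by 1.15 (adjusted p = 0.00991), all by limma. Ppp1r3b rose by 1.12 (adjusted p = 0.0240) and Tmem18 by 1.03 (adjusted p = 0.0177). Mbnl2's second member stayed at 11.7 to 35.2 in 8-cell embryos and was not called. Coro7, a coronin, fell by 1.21 (adjusted p = 0.0428, limma), from 115.4, 92.9, 82.8 and 49.0 in 2-cell embryos to 25, 11.4, 64.1 and 11.9. That call was lost in 11 of 29 alternatives, among them 7 that left out 1 array. The member probe set of Coro7 is of the x_at type. Its other probe sets averaged 324, 222.1, 93.85, 56.95 and 60.1 in 2-cell embryos. In 8-cell embryos these averaged 343.55, 251.75, 77.8, 71.25 and 55.5, in the same order.

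In the step from the 1-cell to the 2-cell stage 2 of the 61 members rose (3.28%), against 8.17% of all probe sets and 2.35% of those under the ceiling, and 2 fell (3.28%), against 6.19% and 1.41%. The 1-cell arrays stood apart in the control probe set for 18S ribosomal RNA, which read 32272 to 42928.5 there and 398.1 to 3808.2 at the other stages; its part in the calls that involve the 1-cell stage was not tested. Zfp507 rose by 1.58 (SE 0.42, adjusted p = 0.0101, limma), from 22.1, 19.8, 10.1 and 61.4 to 77.6, 89.5, 139.7 and 170.5. Its 8-cell arrays read 50.2, 73.1, 51.0 and 159.1 and its blastocysts 815.8, 427.4, 338.3 and 791.1. No call was made between the 2-cell and 8-cell stages on this member probe set. The rise into the blastocyst is what the rule chose. The other Zfp507 probe set took another course. It averaged 21.75 in 1-cell, 29.1 in 2-cell and 76.7 in 8-cell embryos and 91.6 in blastocysts. Atp8b1 rose by 1.07 (adjusted p = 0.0185, limma), from 79.4, 21.5, 36.8 and 34.4 to 94.8, 108.5, 96.5 and 124.3.

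The other two fell between the 1-cell and 2-cell stages. Peli2 fell by 1.04 on its member probe set (adjusted p = 0.0171, limma), from 65.7, 46.7, 24.1 and 24.9 to 5.8, 13.3, 7.1 and 7.2. It then read 10.7 to 13.8 in 8-cell embryos. The other Peli2 probe set averaged 163.4 ± 66.1 in 1-cell and 165.7 ± 8.68 in 2-cell embryos (SD, n = 4 each). Ano6 fell by 1.18 on its member probe set (adjusted p = 0.0432, limma), from 206.0, 29.5, 94.7 and 38.9 to 19.4, 26.6, 21.5 and 18. This call was lost in 14 of 29 alternatives, among them the one without 1-cell replicate 1, its highest array. The other Ano6 probe set averaged 431.5 ± 122 in 1-cell and 410.0 ± 90.3 in 2-cell embryos (SD, n = 4 each). Between oocytes and the 1-cell stage 0 members rose and 0 fell by limma, against 1.67% and 2.77% of all probe sets and 0.235% and 0.455% of those under the ceiling, and at an unadjusted p under 0.05 0 rose and 1 fell. Among the 4 earlier stages as a whole, 15 members (24.6%) changed by the moderated F test, against 33.5% of all probe sets and 12.8% of those under the ceiling.

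**Figure D4:**
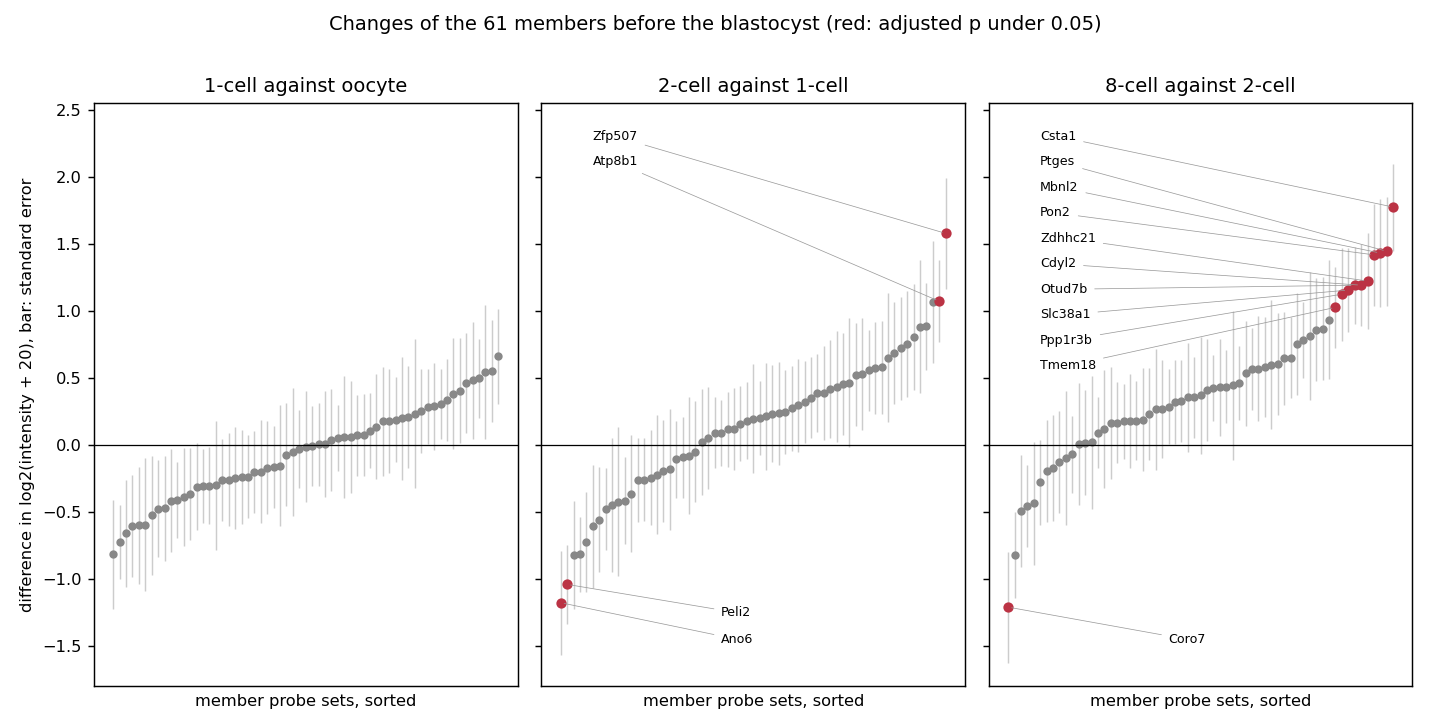
Difference in log2(intensity + 20) with its standard error for each of the 61 members in the 3 steps before the blastocyst, sorted within each panel; red points have an adjusted p under 0.05 by limma. The left panel has 0 called points, the middle one 4 and the right one 11, of which 10 lie above 0.

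The fixed gene lists place the members among the other genes of each pathway. They were drawn up with earlier results of these data known, so their counts are a description and no independent support. Since 0.593% of all genes with a probe set were members, lists of this size would hold 0 or 1 member at that share, and nothing is read from a list that held 0. Counts of the other genes refer to the step from the 8-cell stage to the blastocyst, in which 5.49% of all probe sets rose and 4.37% fell by limma. Of the probe sets under the ceiling, 3.86% rose and 1.28% fell. Each listed gene was counted on 1 probe set, whereas all probe sets include dim ones and several of the same gene. Shares and medians over all probe sets are therefore no matched baseline for the lists, and no excess over them is read from the counts. Of 30 measured trophectoderm and trophoblast genes, Csta1, Mbnl3, Klf6 and Ptges were members, and of the other 26, 9 rose and 2 fell, with a median difference of 0.57 against -0.07 over all probe sets. The calcium-binding protein Efhd2 rose from 1207 ± 273 in 8-cell embryos to 11082 ± 4428 in the blastocyst, and Ddah1, an enzyme that breaks down methylated arginine, from 2081 ± 271 to 6169 ± 863 (SD, n = 4 each). Both were already over 1000 in 8-cell embryos. The other 7 that rose were Tmprss2, Tead1, Epcam, Tspan8, Fabp3, Plet1 and Wnt9a, and Esrrb and Sp6 fell. None of the 30 was among the 58 genes that were low up to the 2-cell stage, at least 2 log2 units higher in 8-cell embryos and within 1 log2 unit of it in the blastocyst; whether the 2 sets differ in this was not tested.

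The list of inner cell mass and pluripotency genes had 15 measured genes and 0 members. Among them L1td1, Ooep, Il6st, Etv5 and Lefty2 rose and Rif1 and Esrrb fell, 5 against 2. L1td1, an RNA-binding protein of pluripotent cells, rose from 409.9 ± 178 to 6305 ± 3566, but had read 928.4 ± 37.5 in 2-cell embryos (SD, n = 4 each). Of 23 primitive endoderm genes, Dusp4 was a member and of the other 22, Pdgfra, Flrt3 and Dkk1 rose and Sparc and Ctsh fell. Pdgfra, a growth factor receptor that marks this layer, rose from 93.8 ± 53.3 to 315.9 ± 63.5, whereas Gata6 read 567.9 ± 92.2 in 8-cell embryos and 415.4 ± 108 in the blastocyst without a call.

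Several genes of epithelial structure that are no members rose in the blastocyst. Of 33 genes of junctions, adhesion and polarity 0 were members, 7 rose and 0 fell by limma (at an unadjusted p under 0.05, 0 fell). Epcam, an epithelial adhesion molecule, rose from 893.4 ± 57.5 to 2764 ± 571, and Magi3, a junctional scaffold, from 23.8 ± 3.28 to 743.3 ± 154, having read 703.0 ± 172 in oocytes. Of 21 genes of microvilli and the cortical cytoskeleton 0 were members, 9 rose and 1, Arhgap29, fell. Lima1, an actin-bundling protein, rose from 421.2 ± 61.5 to 2749 ± 547. Of 16 genes of ion and water transport 0 were members, Trpm6 rose, and Kcnk6 and Aqp11 fell. Of 23 genes of endocytosis and the lysosome 0 were members, Psap rose, and Rab11fip1 and Ctsh fell. Psap, the precursor of lysosomal saposins, went from 4977 ± 358 to 19005 ± 3129 (SD, n = 4 each).

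In the Hippo pathway list of 16, Vgll3 was a member, and of the other 15, Tead1 and Fat1 rose and Taok1, Stk4 and Mob1b fell. Tead1, a partner of Vgll3's family, rose from 1156 ± 282 to 2878 ± 717, and Fat1, an atypical cadherin, from 1207 ± 213 to 3147 ± 552 after 4127 ± 740 in oocytes (SD, n = 4 each). Csta1 was the member among 19 proteases and inhibitors, and of the other 18, Tmprss2 rose and Tmprss11a fell. Ptges was the member among 32 genes of lipid, sterol and retinoid metabolism, of which Elovl7, Insig1, Hsd17b7 and Fabp3 rose and Gpat3 and Rdh10 fell. Dusp4 was the member among 52 genes of growth factor signalling, of which 8 others rose and 2, Fzd3 and Jag1, fell. Fzd5, a Wnt receptor, rose from 368.8 ± 209 to 1191 ± 240. Slc30a1 and Slc38a1 were the members among 43 solute carriers, of which 6 others rose and 5, Slc35f2, Slco4c1, Slc5a3, Slc19a3 and Slc7a2, fell. Listed genes beyond the 3 brightest of each list were named after their values were seen.

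Of the markers of other cells that could come along with embryos, only Acta2 passed the test for a rise in the blastocyst. Lists of cumulus and granulosa (8 measured), blood and macrophage (3) and oviduct and uterus genes (8) held 0 members, and Acta2, a smooth muscle actin of the oviduct list, was the 1 that rose in the blastocyst, from 9.45 ± 2.47 to 66.6 ± 53.1 (SD, n = 4 each); Amhr2, Laptm5 and Cfap126 fell. At an unadjusted p under 0.05, 0 genes of the cumulus and blood lists rose either. The summed intensity of the measured cumulus markers Ptx3, Amhr2 and Foxl2 was 738.9 to 1073.6 in blastocysts and 871.3 to 1074.6 in oocytes. It was 713.9 to 1142.5 in 1-cell, 2402.5 to 3105 in 2-cell and 1160.4 to 1839 in 8-cell embryos, with Amhr2 at a mean of 2053 in 2-cell embryos. Whether this sum reads cumulus cells was not tested. Ptprc, the 1 blood marker of 7 that was measured, read no more than 74.6 in blastocysts, and the oviduct markers Pgr, Pax8 and Wnt7a summed to 409.3 to 618.3 there and 473.3 to 958.1 in 8-cell embryos. Of the trophectoderm markers 4 of 13 were measured, with summed intensities of 1036.0 to 1559.9 in blastocysts, 1028.3 to 1149.1 in 8-cell embryos and 377.7 to 595.0 in oocytes, so that blastocysts and 8-cell embryos overlapped; Aqp3 among them was low at all stages. Of the inner cell mass markers 1 of 7 was measured, Esrrb, at 569.9 to 735.4 in 8-cell embryos and 293.4 to 468.3 in blastocysts. Of the primitive endoderm markers 4 of 8 were measured, with sums of 841.3 to 1126.5 in 8-cell embryos and 875.3 to 1173.8 in blastocysts.

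Blastocyst replicates did not contribute alike. Replicate 4 was the lowest of the 4 blastocyst arrays for 24 of the 61 members and replicate 2 for 6, whereas replicate 2 was the highest for 19. Probe sets as bright among all were lowest on replicate 4 in 24.6% of cases and on replicate 2 in 25.4%. They were highest on replicate 2 in 19.7%. Correlations of log2 values between blastocyst arrays were 0.865 to 0.891 over all probe sets. The rule was also applied with 1 replicate number of every stage left out, and the arrays left out were then read. Of 55 probe sets chosen without replicate 1, 44 had an excess of at least 2 on the arrays left out, and all 55 were above 0. The figures were 42 of 56 at or over 2 for replicate 2, 30 of 66 for replicate 3 and 33 of 65 for replicate 4, where 61 were above 0. Among all probe sets with 1 symbol, 0.559% to 0.791% reached 2 in this way. Of the 61 members, 42 met the rule without any single array.

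At the level of whole arrays, each had been scaled to the same trimmed mean, and median intensities per array were 67.8 to 80.2 in oocytes, 69.2 to 77.8 at the 1-cell, 81.0 to 87.5 at the 2-cell, 90.2 to 93.3 at the 8-cell and 83.2 to 90.0 at the blastocyst stage. Bacterial spike-in control probe sets averaged 7.59 log2 units in oocytes, 7.93 in 1-cell, 7.89 in 2-cell and 8.37 in 8-cell embryos and 7.93 in blastocysts. They were thus highest in 8-cell embryos, and lower again in the blastocyst. The labels do not say whether the 4 arrays of a stage came from separate collections of embryos, so p-values cover only the scatter of these arrays, part of which may be technical.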

How the data were processed

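The authors deposited 1 table of linear intensity values, 1 per probe set and array (22575 probe sets, 64 of them controls). No label names the scanner software, the probe summarisation or the scaling target. In the values, each array had the same mean after trimming 2% at each end. Stages and replicate numbers came from the sample titles, and symbols from the platform annotation, of which 14486 of 14661 matched RefSeq's gene table.

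Values were turned into log2(intensity + 20). The 5 stage means of all 22511 non-control probe sets, with no filter on low values, were fitted with limma 3.58.1 in R 4.3.3 (intensity trend, Benjamini-Hochberg adjustment); the fit was tested on simulated data. All 61 members were tested. The members, gene lists and tests were chosen with earlier results of these data known.

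Members were named by level, excess, list, adjusted p and nearness to a threshold: the 20 brightest, the 15 with the largest excess, all on a list, up to 8 per direction and step, and 4 on each side of each threshold, leaving out clone-like names. Alternatives were other pseudocounts, scalings, thresholds, filters, weights and left-out arrays. The number of arrays limits the precision.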

Additional observations from a re-analysis of the deposited data

Results flagged for a closer look

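In a group of 4 arrays, an array was singled out when its gap to the nearest other, divided by the range of the group, was over Dixon's critical value for 4 values. Of 305 groups, 61 members at 5 stages, 27 had such an array, where chance gives about 5% if values are normally distributed. The ratio was taken on linear intensities, for which that was not tested. No share over all probe sets was computed, so the count is not read as a result about the members. They lay in oocytes (5), at the 1-cell (5), 2-cell (11) and 8-cell stages (5) and in blastocysts (1). The 1 blastocyst case was Itpripl2, whose replicate 4 read 110.6 when the others read 333.1 to 366.7.

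In oocytes, a single high array read Arid5b 158.1 (replicate 1), Ptges 114.6 (replicate 2), Kbtbd13 144.4 (replicate 4) and Cryzl1 32.8 (replicate 3), and a single low array read Ptprk 5.2 (replicate 1). At the 1-cell stage, a single high array read Iffo2 89.2 (replicate 4), P2rx3 19.2 (replicate 2), U2surp 118.9 (replicate 2), Mpzl3 137.6 (replicate 1) and Ptprk 54.1 (replicate 4). At the 2-cell stage, a single high array read Gulp1 36.8 (replicate 2), 3000002C10Rik 258.1 (replicate 1), Dusp4 89.0 (replicate 4), Mccc2 104.4 (replicate 2), Pon2 35.8 (replicate 1), Mbnl2 41.8 (replicate 1), Vtcn1 58.8 (replicate 2), Sh2d4a 121.9 (replicate 3) and Gm21283 52.6 (replicate 2), and a single low array read Csta1 1.7 (replicate 2) and Ptges 7.3 (replicate 3). At the 8-cell stage, a single high array read Arid5b 251.5 (replicate 2), Tmem125 66 (replicate 1), Dusp4 87.5 (replicate 3), Kbtbd13 118.5 (replicate 3) and Cryzl1 46.5 (replicate 3). Most of these arrays lie far under the blastocyst values of the same gene, the nearest being Sh2d4a at the 2-cell stage, whose array was above its lowest blastocyst array of 105.9. Arid5b, Ptges, Kbtbd13, Dusp4, Ptprk and Cryzl1 each had more than 1.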

How the results depend on the processing

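The rule took 61 probe sets; with a pseudocount of 40 it took 36, with a least difference of 1.5 it took 112 and with one of 3 it took 17. Quantile normalisation gave 60, of which 56 were members, and shifting all arrays to 1 median gave 57, of which 54 were. Leaving out each array in turn gave 57 to 68. In both scalings 54 members were kept, and 34 were kept in every setting of values and without any 1 array.

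Of the changes before the blastocyst, 391 of 435 pairs of a called change and an alternative kept direction and call, 44 kept direction only and 0 reversed. The count that rose from the 2-cell to the 8-cell stage ran from 5 (without 8-cell replicate 3) to 11 when 1 array was left out. The 1 that fell in that step became 0 with a pseudocount of 80, with array weights and with the 16 earlier arrays alone, 2 with no intensity trend, and 0 to 1 when 1 array was left out. From the 1-cell to the 2-cell stage the 2 that rose became 1 with quantile normalisation and 1 to 3 without 1 array, and the 2 that fell became 1 with a pseudocount of 80 or the 16 earlier arrays and 0 to 2 without 1 array (0 without 1-cell replicate 1). From oocyte to 1-cell both counts stayed at 0, and changes among the earlier stages numbered 13 to 18. The cause of these shifts was not tested.

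Replicate numbers are shared by the stages, but none of 40 same-number pairs correlated over 0.1 (-0.06 to 0.07) over all probe sets. The numbers were therefore left out of the main fit. Whether arrays of the same number share a collection or batch was not tested. With the replicate number as a block (the replicate block), 10 members still rose from 2-cell to 8-cell and 0 fell, 2 rose and 1 fell from 1-cell to 2-cell, and 15 changed in all. Other probe sets of member genes at or over an excess of 1 were 3 without x_at sets.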
